A study of Rattus norvegicus with 12 samples.

Results

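The core circadian clock genes followed here were Arntl, Clock, Npas2, Per1, Per2, Per3, Cry1, Nr1d1, Nr1d2 and Dbp, taken by symbol from a table of read counts for 34599 rat genes. All 10 were in the table, and all 10 passed the filter on low counts that left 15101 genes for testing. The counts came from left ventricular tissue of the infarct region of 12 male Sprague-Dawley rats, 4 in each of 3 groups, 1 d after surgery. Sham rats had the chest opened without ligation. MI rats had the left anterior descending coronary artery ligated and received no treatment. In iCarP+/Light+ rats the same artery was ligated, the photosynthetic microalga Chlorella was delivered by injection into the infarcted ventricle, the iCarP patch was adhered to the heart with the adhesive gel CCS@gel, and the heart was illuminated. Alga, patch, adhesive and light thus separate this group from MI all at once, and the group iCarP+/Light- was not analysed here. The time of day at which tissue was collected is not given in the sources used here. Clock transcripts vary over the day, so an unequal hour of collection and a difference between groups cannot be told apart in any comparison of these genes.

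The clock is a transcriptional loop that runs in nearly every cell, cardiomyocytes included. BMAL1, the product of Arntl, pairs with CLOCK or with its relative NPAS2 and activates genes that carry E-boxes, among them Per1, Per2, Per3, Cry1, Nr1d1, Nr1d2 and Dbp. PER and CRY proteins feed back to inhibit that pair. The nuclear receptors REV-ERBα, from Nr1d1, and REV-ERBβ, from Nr1d2, repress Arntl through ROR elements, and DBP carries the rhythm onward through D-boxes. In a running clock, Arntl therefore peaks when Nr1d1, Per3 and Dbp are low. In the heart the clock is known for its influence on metabolism, ion channels and the tolerance of injury.

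Stretches of the promoters of Arntl, Per2 and Nr1d1 are shown because they hold letters of the elements named above. RefSeq windows on the rat build GRCr8, from 250 bases before to 50 after each annotated start, were found for 9 of the 10 genes, Arntl under its current symbol Bmal1, in 11 entries since Clock and Nr1d1 have more than 1 start. No window for Cry1 was found in that table. The windows were searched on both strands for the E-box CACGTG, the E-prime box CACGTT, the D-box as TTATGTAA or TTACGTAA, the ROR element as TAGGTCA or TGGGTCA, and the cyclic AMP element TGACGTCA. No match shared bases with another. In the excerpts below, written 5′ to 3′ on the strand of the gene, capitals mark the match.
Arntl, chr1:176766298-176766327, plus strand, with TAGGTCA: gggaaggcagaaagTAGGTCAgggacggag
Per2, chr9:99497154-99497213, minus strand, with TTATGTAA: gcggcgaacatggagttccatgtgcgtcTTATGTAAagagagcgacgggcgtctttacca
Per2, chr9:99497041-99497070, minus strand, with CACGTT: ctcaacgcgcgcggtCACGTTttccactat
Nr1d1, chr10:84231957-84232016, minus strand, with CACGTT read on the other strand: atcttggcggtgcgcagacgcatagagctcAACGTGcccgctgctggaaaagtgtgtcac
Nr1d1, chr10:84229631-84229660, minus strand, with CACGTG: atgtgtcagctcccaCACGTGtctggggat

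The ROR element of Arntl began 16 bases before its start, and TAGGTCA was present in 2.63% of all 33469 promoter windows in the table. The D-box and E-prime box of Per2 began 192 and 62 bases before its start, and 0.893% and 4.83% of all windows held these letters. The E-box of Nr1d1 lay before the more internal of its starts and is found in 6.42% of all windows. None of the motifs searched was in the windows of Clock, Npas2, Per1, Per3, Nr1d2 or Dbp, which says only that these letters are not within those 300 bases. The letters TTACGTAA, TGGGTCA and TGACGTCA, in 0.12%, 4.09% and 1.83% of all windows, were in no window of the clock genes.

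The libraries held 14064414 to 17136958 counted reads, and mitochondrial genes took 22.8 to 28.9% of the counts in Sham rats, 8.52 to 11.5% in MI rats and 7.14 to 14.2% in iCarP+/Light+ rats. Levels are given as CPM, the usual read counts relative to library size, with that size scaled by TMM, a method that allows for such differences in composition. The tissue expressed its defining markers, with none of the listed markers at 0 in any group, but the balance of cell types differed strongly. The summed level of 15 cardiomyocyte markers was 70037 to 74668 CPM in Sham rats, 5047 to 10746 after MI and 4588 to 11993 with iCarP+/Light+, and 14 of the 15 were lower in MI than in Sham by edgeR at an adjusted p below 0.05. The summed level of 12 leukocyte markers was 368 to 585, 5030 to 8629 and 7667 to 13750 CPM in the same order, and all 12 were higher in MI than in Sham. Summed fibroblast markers (8 of 8 in the table) were at 8786 to 10936, 2488 to 2876 and 1291 to 2883 CPM, endothelial markers (7 of 8) at 1718 to 1939, 784 to 1193 and 1000 to 1148 CPM, and red blood cell markers (6 of 8 symbols) at 7863 to 10568, 2503 to 6928 and 6183 to 17465 CPM. In whole tissue, fewer cells of a type and less RNA per cell cannot be told apart. The part of these shifts in the clock genes' differences was not tested.

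At this single time point, core clock genes differed in both directions between infarcted and Sham hearts. The activators Arntl and Clock were higher in MI than in Sham, and Per1, Per2, Per3, Nr1d1, Nr1d2 and Dbp were all lower, with no MI rat inside the Sham range for any of these 8 genes. Cry1 was lower only at the edge of the threshold, and Npas2 did not pass it. The question of this comparison is what coronary ligation did to the tissue within the first day. By edgeR's quasi-likelihood test with Benjamini-Hochberg adjustment over all 15101 genes, 2 clock genes were higher, 7 were lower and 1 was not called at an adjusted p below 0.05. Of all genes tested, 63.8% were called in this comparison, 30.2% as higher and 33.6% as lower, so a call by itself was common. The groups did not overlap for 2 clock genes that were higher and 6 that were lower, against 27.6% and 31.4% of all genes, 59% in either direction. The median log2 difference of the 10 genes was -1.83, against -0.06 over all genes, and 4.24% of genes tested had a larger absolute change than Dbp, 6.05% than Per3, 7.34% than Nr1d1, 7.67% than Arntl, 10.6% than Nr1d2 and 11.8% than Per2. For Per1, Clock, Cry1 and Npas2 that share was 31.9%, 54.6%, 63.6% and 95.8%.

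**Figure D1:**
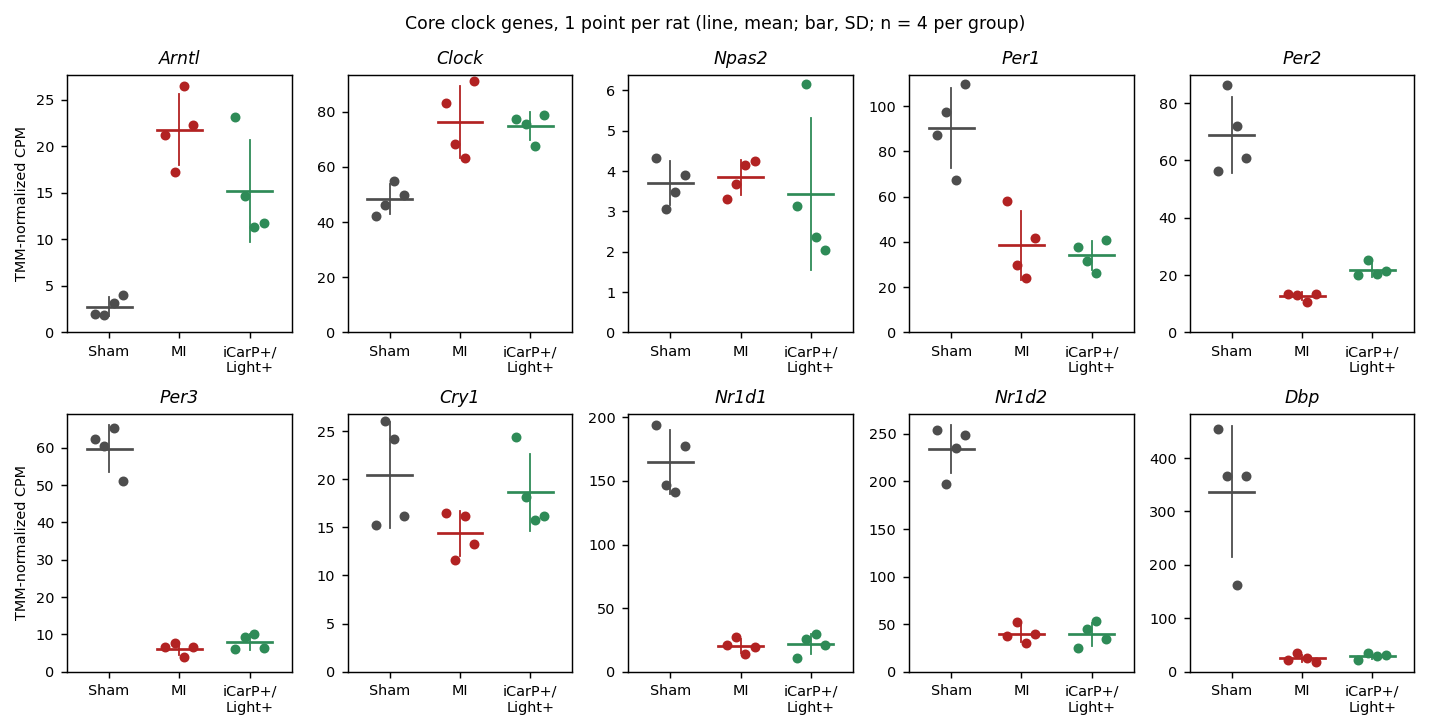
TMM-normalized CPM (vertical axes, starting at 0) of the 10 core clock genes in Sham, MI and iCarP+/Light+ rats, 1 point per rat, with a horizontal line at the mean and a bar of 1 SD (n = 4 per group). Arntl was at 1.91 to 3.98 CPM in Sham and at 11.3 CPM or more in every infarcted heart, while Dbp was at 163 CPM or more in Sham and at 34.6 CPM or less in every infarcted heart.

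Arntl (ENSRNOG00000014448, chr1:178039063-178137465 on rn6) had the largest rise among the activators. In rats ordered by number, it was at 2.02, 1.91, 3.19 and 3.98 CPM in Sham, 21.2, 17.3, 26.5 and 22.2 CPM in MI, and 23.1, 14.7, 11.3 and 11.7 CPM in iCarP+/Light+. Every infarcted heart was above every Sham heart, and the groups MI and iCarP+/Light+ overlapped through iCarP+/Light+ rat 1, the highest of its group. The log2 fold change from Sham to MI was 2.97 (SE 0.29, adjusted p = 1.89e-06), a 7.85-fold difference, and from Sham to iCarP+/Light+ it was 2.46 (SE 0.29, adjusted p = 7.48e-06).

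Clock, which encodes the partner of BMAL1 and lies at chr14:34446616-34502218 on rn6, moved the same way but far less. It was at 42.1, 46.3, 55.0 and 49.8 CPM in Sham, 83.0, 68.1, 63.1 and 91.0 CPM in MI, and 77.4, 75.6, 67.6 and 78.9 CPM in iCarP+/Light+ rats. The Sham values were again all below those of both infarct groups. Against Sham, its log2 fold change was 0.66 (SE 0.13, adjusted p = 5.89e-04) in MI and 0.63 (adjusted p = 7.49e-04) in iCarP+/Light+ rats.

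Npas2 (chr9:45901741-46081880), which can take the place of CLOCK, did not pass the threshold in any comparison. Its levels were 4.34, 3.07, 3.49 and 3.91 CPM in Sham, 3.30, 3.67, 4.14 and 4.26 CPM in MI, and 3.13, 6.16, 2.37 and 2.04 CPM in iCarP+/Light+ rats. The 3 groups overlapped, with the highest and the lowest value both in iCarP+/Light+ rats. Npas2 differed between Sham and MI by 0.05 on the log2 scale, with a 95% interval of -0.61 to 0.72, which leaves room for a change as large as that of Clock.

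The 3 Period genes, which encode the inhibitory arm of the loop, were all lower in infarcted tissue, by amounts that rose from Per1 through Per2 to Per3. Per1 (chr10:55687050-55695994) was at 87.2, 97.3, 67.5 and 110 CPM in Sham, 58.1, 29.9, 23.8 and 41.8 CPM in MI, and 37.6, 31.7, 26.3 and 40.8 CPM in iCarP+/Light+ rats. The lowest Sham rat was above the highest infarcted rat, though by a narrow margin against MI rat 1. Per1 had a log2 fold change of -1.23 (SE 0.25, adjusted p = 7.79e-04) in MI and -1.41 (adjusted p = 2.70e-04) in iCarP+/Light+ rats.

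Per2 (chr9:98555169-98597359, minus strand) was at 56.3, 86.2, 71.9 and 60.8 CPM in Sham, 13.5, 13.2, 10.7 and 13.5 CPM in MI, and 19.9, 25.2, 20.3 and 21.5 CPM in iCarP+/Light+ rats. No group overlapped with another, with iCarP+/Light+ rats between the other groups. Against Sham, Per2 had a log2 fold change of -2.43 (SE 0.15, adjusted p = 8.22e-08) in MI and -1.66 (SE 0.15, adjusted p = 5.65e-07) in iCarP+/Light+ rats.

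Per3 (chr5:168086998-168123395, minus strand) fell further than its paralogues. It was at 62.3, 60.5, 65.4 and 51.0 CPM in Sham, 6.66, 7.61, 3.92 and 6.54 CPM in MI, and 5.95, 9.25, 10.1 and 6.33 CPM in iCarP+/Light+ rats. The Sham rats stood far above both infarct groups, which overlapped. In MI its log2 fold change was -3.27 (SE 0.22, adjusted p = 1.26e-07), a 9.65-fold difference, and in iCarP+/Light+ rats it was -2.92.

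Cry1 (chr7:24534615-24634097), which encodes the partner of the PER proteins, differed least among the repressors. It was at 15.3, 26.1, 24.1 and 16.1 CPM in Sham, 16.5, 11.6, 16.2 and 13.2 CPM in MI, and 24.4, 18.1, 15.8 and 16.2 CPM in iCarP+/Light+ rats. All 3 groups overlapped, with Sham rats 1 and 5 within the MI range. The log2 fold change in MI was -0.50 (SE 0.21, adjusted p = 0.0484), a call that was lost under each of 9 alternative settings and kept when 4 of the 12 rats were each left out, and the sign turned to 0.07 when libraries were scaled by total counts alone.

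The REV-ERB genes Nr1d1 and Nr1d2, whose products repress Arntl, were both low where Arntl was high. Nr1d1 (chr10:86683875-86690815, minus strand) was at 194, 147, 141 and 178 CPM in Sham, 21.0, 27.3, 13.9 and 19.0 CPM in MI, and 11.1, 25.6, 29.5 and 21.2 CPM in iCarP+/Light+ rats. Each infarcted heart held less than the lowest Sham heart by a wide margin. Nr1d1 had a log2 fold change of -3.02 (SE 0.28, adjusted p = 1.17e-06) in MI, an 8.12-fold difference, and -2.92 in iCarP+/Light+ rats. Nr1d1 overlaps Thra, the thyroid hormone receptor α gene on the opposite strand, over 1059 bases, and the library kit does not mark strand, so reads from that stretch cannot be told apart. The mean level of Thra was 90.2 CPM in Sham rats, 26.9 after MI and 27.5 with iCarP+/Light+. No other clock gene listed here overlaps a gene of the table.

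Nr1d2 (chr15:8730871-8757165), which overlaps no other gene, was at 254, 198, 235 and 249 CPM in Sham, 38.0, 52.0, 30.0 and 39.5 CPM in MI, and 25.3, 44.4, 53.2 and 34.0 CPM in iCarP+/Light+ rats. Its Sham values were likewise all far above those of both infarct groups, which overlapped almost fully. Its log2 fold change was -2.55 (SE 0.22, adjusted p = 7.97e-07) in MI and -2.58 in iCarP+/Light+ rats.

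Dbp (ENSRNOG00000021027, chr1:101687855-101692846), the output factor that binds D-boxes, showed the largest change of the 10 genes. It was at 455, 366, 163 and 366 CPM in Sham, 22.1, 34.2, 25.6 and 18.7 CPM in MI, and 21.0, 34.6, 30.0 and 31.3 CPM in iCarP+/Light+ rats. Sham rat 3 was low for its group but was still well above every infarcted rat. Dbp had a log2 fold change of -3.75 (SE 0.31, adjusted p = 4.64e-07) in MI, a 13.4-fold difference, and -3.53 in iCarP+/Light+ rats.

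**Figure D2:**
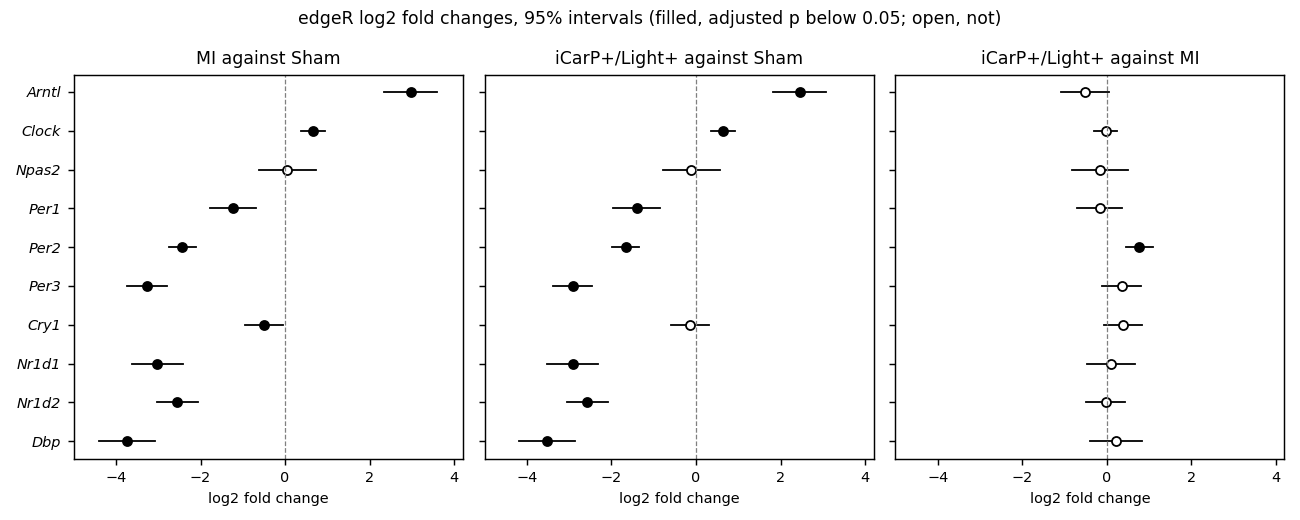
Log2 fold changes (horizontal axes) of the 10 clock genes in the 3 comparisons, with 95% intervals from edgeR; filled points are at an adjusted p below 0.05. Against Sham, Arntl and Clock lie right of 0 and the Period, REV-ERB and Dbp genes left of it in both infarct groups, and from MI to iCarP+/Light+ the interval of Per2 (0.45 to 1.08) is the one that passed the threshold.

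Levels of different genes were compared as CPM per kilobase of gene model. In Sham, Dbp was highest at 198 ± 72.5 CPM per kb (SD, n = 4), followed by Nr1d1 at 64.7 ± 9.83, Nr1d2 at 50.8 ± 5.52, Per1 at 22.3 ± 4.41, Per2 at 11.9 ± 2.30, Per3 at 9.25 ± 0.957, Cry1 at 6.98 ± 1.88, Clock at 5.13 ± 0.583, Arntl at 0.934 ± 0.333 and Npas2 at 0.866 ± 0.127 CPM per kb. Neighbours in this order overlapped from rat to rat for Per2 with Per3, Per3 with Cry1, Cry1 with Clock, and Arntl with Npas2. In MI the span was much narrower, from 14.8 ± 3.91 CPM per kb for Dbp to 0.899 ± 0.103 for Npas2. Per1 at 9.49 ± 3.73, Nr1d2 at 8.65 ± 1.97, Clock at 8.10 ± 1.37, Nr1d1 at 7.96 ± 2.18 and Arntl at 7.33 ± 1.27 CPM per kb had overlapping SDs there, while Per3 had dropped to 0.956 ± 0.245, next to Npas2. In iCarP+/Light+ rats, Dbp was at 17.2 ± 3.40, Nr1d1 at 8.57 ± 3.11 and Arntl at 5.12 ± 1.84 CPM per kb, and the levels of Clock (7.95 ± 0.535) and Per1 (8.42 ± 1.59) lay within the spread of Nr1d1.

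Ratios between clock genes of the same library do not depend on how libraries are scaled. Per kilobase, Sham hearts held 89.4 to 392 times as much Dbp as Arntl, MI hearts 1.47 to 3.46 times and iCarP+/Light+ hearts 1.59 to 4.65 times. For Nr1d1 over Arntl it was 51.7 to 112 in Sham, 0.612 to 1.84 after MI and 0.559 to 3.04 with iCarP+/Light+. The ratio of Per3 to Arntl was 5.89 to 14.5, 0.0680 to 0.203 and 0.118 to 0.410 in the same order, so that Per3 passed from well above Arntl to well below it. Even the ratio of both activators shifted, with 3.95 to 7.64 times as much Clock as Arntl in Sham, 0.753 to 1.29 times in MI and 1.06 to 2.12 times in iCarP+/Light+ rats. In each of these ratios the Sham rats were apart from all infarcted rats, and the infarct groups overlapped. The ratio of Nr1d2 to Nr1d1 was 0.725 to 0.921 in Sham and 1.00 to 1.20 in MI rats, which did not overlap, and 0.887 to 1.26 in iCarP+/Light+ rats, which overlapped with both.

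**Figure D3:**
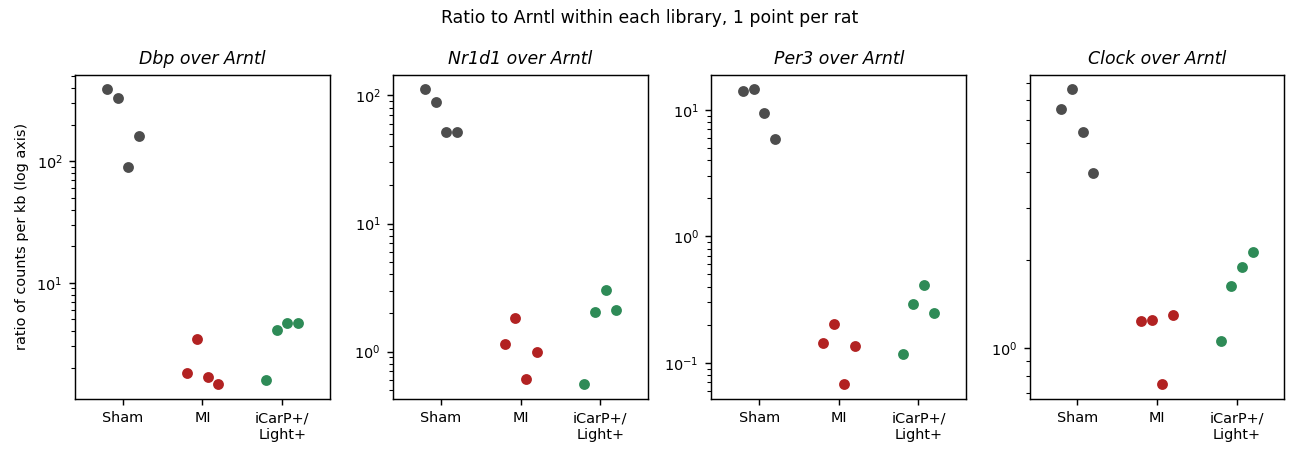
Ratio of Dbp, Nr1d1, Per3 and Clock to Arntl (vertical log axes, counts per kb over counts per kb within 1 library) in Sham, MI and iCarP+/Light+ rats, 1 point per rat. Dbp over Arntl is at 89.4 or more in every Sham rat and at 4.65 or less in every infarcted rat, and in all 4 panels the lowest iCarP+/Light+ point is rat 1.

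From MI to iCarP+/Light+, 1 of the 10 clock genes was called, Per2, where 13.6% of all genes were called, so the count was not above the background. The comparison of iCarP+/Light+ with MI asks what the illuminated algal patch changed in infarcted tissue. Per2 was higher in all 4 iCarP+/Light+ rats (19.9 to 25.2 CPM) than in any MI rat (10.7 to 13.5 CPM), with a log2 fold change of 0.77 (SE 0.15, 95% interval 0.45 to 1.08, adjusted p = 0.00316 by edgeR), a 1.70-fold difference. The call held with any 1 of the 12 rats omitted (0.69 to 0.81) and under 9 of 9 other settings (0.50 to 0.77). Per2 remained well below Sham, as given above. Of the 10 clock genes, 1 was higher, 0 were lower and 9 were not called, beside 11.6% of all genes higher and 2.01% lower. Groups that did not overlap were found for Per2 alone, against 12.1% of all genes higher, 4.37% lower and 16.4% in either direction. The median log2 difference of the 10 genes was 0.04, against 0.01 over all genes. Summed leukocyte markers were higher in every iCarP+/Light+ rat but 1 than in the highest MI rat. Of the 12 markers tested, 6 were called higher, 1 lower and 5 not, beside 11.6% of all genes higher and 2.01% lower. The part of these markers in the difference of Per2 was not tested.

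Among the other 9 genes, Arntl came nearest to a change, at 15.2 ± 5.47 CPM (SD, n = 4) in iCarP+/Light+ and 21.8 ± 3.78 CPM in MI rats. Its log2 fold change was -0.52 (SE 0.26, 95% interval -1.08 to 0.05, adjusted p = 0.239). Without iCarP+/Light+ rat 1 it was -0.79 with an adjusted p of 0.0418, and with libraries scaled by total counts alone it was -0.77 with an adjusted p of 0.0432, a scaling under which the median of all genes was -0.25. All 12 rats under TMM scaling gave no call. Cry1 differed by 0.37 (95% interval -0.08 to 0.82, adjusted p = 0.290) and Per3 by 0.35 (-0.11 to 0.82, adjusted p = 0.338). The intervals were -0.30 to 0.25 for Clock, -0.83 to 0.51 for Npas2, -0.71 to 0.36 for Per1, -0.47 to 0.68 for Nr1d1, -0.49 to 0.44 for Nr1d2 and -0.39 to 0.82 for Dbp. These intervals do not show that the genes were equal in both groups. The sign of the difference turned for Clock and Per1 with 1 rat omitted. For Dbp it turned under another setting, and for Nr1d1 and Nr1d2 in both ways.

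The treated infarct was also compared with Sham, in a comparison that uses the same Sham rats as that of MI. By edgeR, 2 clock genes were higher, 6 were lower and 2 were not called, where 66.5% of all genes were called, 33.5% as higher and 33% as lower. Cry1 (log2 fold change -0.13, adjusted p = 0.596) and Npas2 (-0.11, adjusted p = 0.781) did not pass the threshold. The groups did not overlap for the 8 called genes, as was the case for 63.5% of all genes, 31.9% higher and 31.6% lower.

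**Figure D4:**
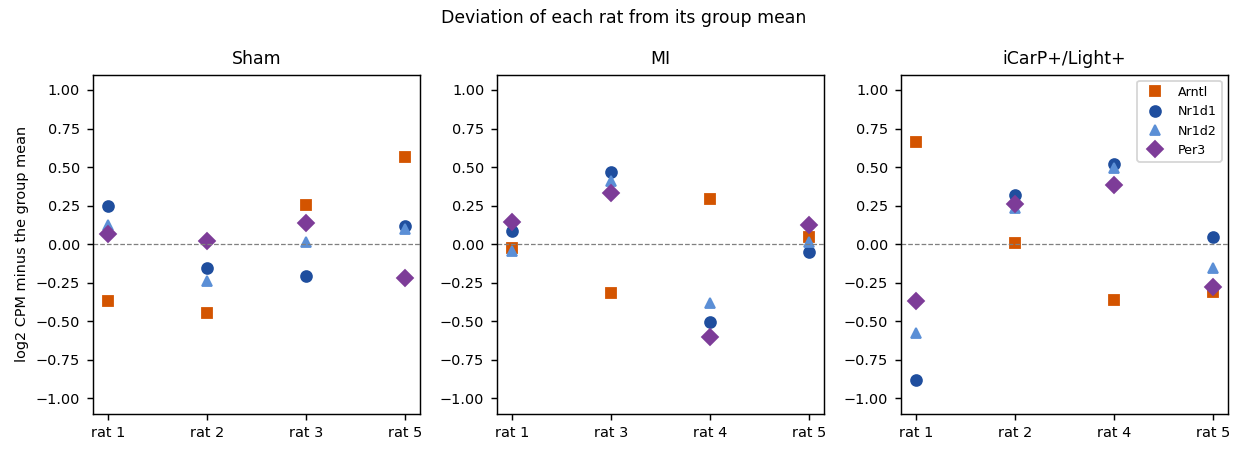
Deviation of Arntl, Nr1d1, Nr1d2 and Per3 in each rat from the mean of its group (vertical axis, log2 CPM), for Sham, MI and iCarP+/Light+ rats (horizontal axis, rat number, which has no order). In both infarct groups the rat with the highest Arntl (MI rat 4 and iCarP+/Light+ rat 1) has the lowest Nr1d1, Nr1d2 and Per3.

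Within the infarct groups, the rats with the highest and lowest Arntl were at the opposite ends for Nr1d1, Nr1d2 and Per3, but not for every repressor. MI rat 4 had the highest Arntl of its group and the lowest Nr1d1, Nr1d2, Per1, Per2 and Per3, and MI rat 3 had the lowest Arntl and the highest Nr1d1, Nr1d2, Per3 and Dbp. In iCarP+/Light+ rats, rat 1 had the highest Arntl and the lowest Nr1d1, Nr1d2, Per2, Per3 and Dbp, and rat 4 had the lowest Arntl and the highest Nr1d1, Nr1d2 and Per3. The order was less regular in Sham rats, where rat 5 had the highest Arntl and the lowest Per3, but Nr1d1 was lowest in rat 3 and highest in rat 1. Cry1 went partly with Arntl, being lowest in MI rat 3 and iCarP+/Light+ rat 4 and highest in iCarP+/Light+ rat 1. In MI rats, Cry1 was highest in rat 1. Per1 was also lowest in iCarP+/Light+ rat 4, the rat with the lowest Arntl of that group. Summed cardiomyocyte markers were highest in MI rat 3, the rat with the most Nr1d1 of its group, but in iCarP+/Light+ rat 1, the rat with the least. With 4 rats in a group these orders are a description and were not tested.

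Further genes of the clock were taken from a list of 26, of which 23 were tested, the rest being too low. From Sham to MI, 4 were higher, 11 lower and 8 not called by edgeR, where 30.2% of all genes were higher and 33.6% lower. Under scaling by total counts alone, which moved the median of all genes to 0.52, 10 were higher and 7 lower. By TMM, their median log2 difference was -0.44, against -0.06 over all genes. Cry2, the paralogue of Cry1, was at 73.3 to 81.1 CPM in Sham rats and fell to between 23.0 and 29.6 CPM after MI (log2 fold change -1.50, SE 0.10, adjusted p = 1.57e-07). Tef, which encodes a relative of DBP that binds the same D-boxes, fell from 208 to 268 CPM to between 36.9 and 57.0 CPM (-2.44, SE 0.16, adjusted p = 1.05e-07). Hlf, the remaining member of that family, was at 2.65 to 5.05 CPM in Sham and at 0.0539 to 0.239 CPM in MI, close to the 3 counts taken as the floor. Nfil3, which encodes the repressor that competes for D-boxes, rose from 8.40 to 10.9 CPM to 25.3 to 40.5 CPM (1.68, SE 0.23, adjusted p = 3.53e-05). The D-box activators and their competitor thus moved in opposite directions. Rora, which encodes an activator at the ROR elements of Arntl, was lower (-0.91, adjusted p = 0.0105), a call that was lost under scaling by total counts alone (-0.33, adjusted p = 0.297).

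Among the co-factors, Ciart, which encodes a repressor of CLOCK and BMAL1, fell by 2.47 on the log2 scale and Cipc, a CLOCK-interacting repressor, by 1.04, while Timeless, which also serves DNA replication, rose by 1.52. Of 9 kinase and phosphatase genes, 2 were higher and 3 lower, where 63.8% of all genes were called in either direction. Prkaa2, a catalytic subunit of AMP-activated kinase that is abundant in muscle, had a log2 fold change of -2.77 (adjusted p = 6.56e-05) and its paralogue Prkaa1 of 0.65 (adjusted p = 0.00112). Csnk2a1, a casein kinase 2 subunit, was at -0.99, and Ppp1cb, a protein phosphatase 1 subunit, at -0.57, though scaling by total counts alone put the latter at 0.00087. Fbxl21, which encodes an F-box protein that directs the turnover of CRY, was at -0.94 (adjusted p = 0.00658), and under the same scaling at -0.36 (adjusted p = 0.256).

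From MI to iCarP+/Light+, 5 of the 23 further clock genes were higher and 0 lower, where 11.6% of all genes were higher and 2.01% lower. The higher ones numbered 3 when any of Sham rats 1 and 5, MI rats 3 and 5 or iCarP+/Light+ rats 2, 4 and 5 was omitted, and under 7 of 9 other settings. One of these, scaling by total counts alone, gave 3 higher and 5 lower, and over all genes it moved the higher share of calls from 85.2 to 30.7%. By TMM, their median log2 difference was 0.31, against 0.01 over all genes. Ciart was at 11.6 to 20.4 CPM in Sham, 1.33 to 3.83 CPM in MI and 10.5 to 26.9 CPM in iCarP+/Light+ rats, so that the treated rats lay above all MI rats and overlapped with Sham. Its log2 fold change from MI to iCarP+/Light+ was 2.88 (SE 0.35, adjusted p = 1.22e-04). Nfil3 rose further, to 79.7 to 180 CPM (2.18, SE 0.23, adjusted p = 4.17e-05). Bhlhe40, which encodes the repressor DEC1 and responds to many stimuli, hypoxia included, was at 99.9 to 135 CPM in Sham, 74.6 to 112 CPM in MI and 139 to 272 CPM in iCarP+/Light+ rats (1.20 from MI, SE 0.19, adjusted p = 9.55e-04). Each of these 3 genes, and Per2, was called under all 9 other settings. The call of Fbxw11, which encodes an adaptor for the turnover of PER (0.36, adjusted p = 0.0433), held under 2 of 9. Tef, at 35.6 to 52.2 CPM, and Cry2, at 25.9 to 30.5 CPM, overlapped with MI (adjusted p = 0.880 and 0.876).

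**Figure D5:**
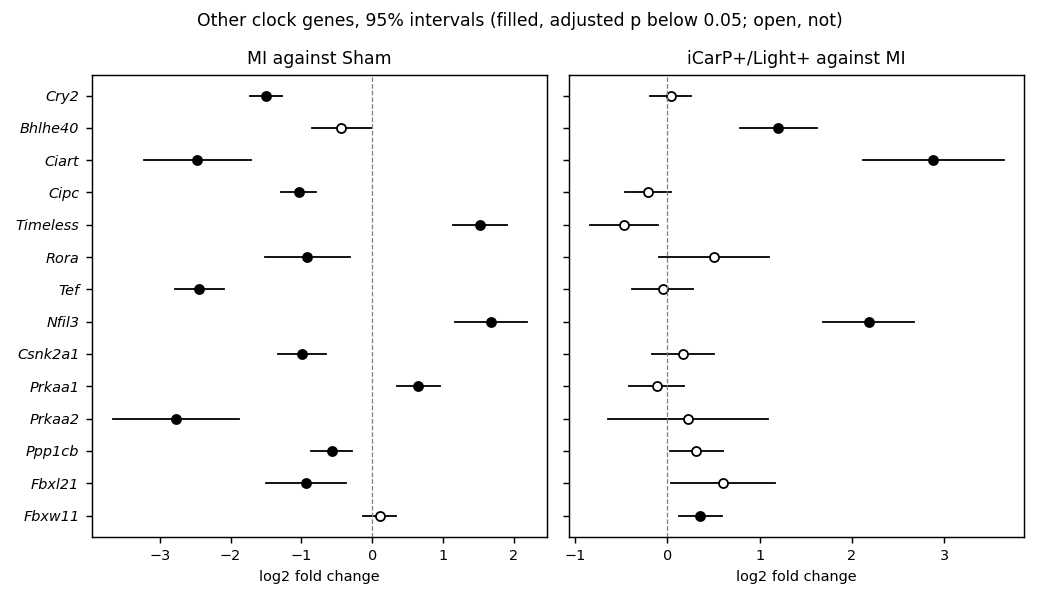
Log2 fold changes (horizontal axes, differently scaled) of 14 further clock genes from Sham to MI and from MI to iCarP+/Light+, with 95% intervals from edgeR; filled points are at an adjusted p below 0.05. Ciart lies at -2.47 on the left and 2.88 on the right, Tef at -2.44 and -0.05; under scaling by total counts alone, Bhlhe40 and Ppp1cb change sign on the left and Cry2, Csnk2a1 and Prkaa2 on the right.

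Genes known as outputs of the clock in heart or liver were followed on a list of 16, all in the table and tested. From Sham to MI, 5 were higher and 8 lower by edgeR, beside 30.2% and 33.6% of all genes, and from MI to iCarP+/Light+ 6 were higher and 0 lower, beside 11.6% and 2.01%. The latter counts were 6 to 7 higher with 1 rat omitted, and 1 lower under scaling by total counts alone, in alternatives added after the data had been seen. Klf15, which encodes a transcription factor that links the clock to cardiac metabolism and repolarization, was at 49.0 to 80.2 CPM in Sham and 3.11 to 6.76 CPM in MI (log2 fold change -3.69, adjusted p = 6.09e-06). Kcnip2, its target and a subunit of the transient outward potassium channel, was at 28.2 to 36.2 CPM in Sham, 0.287 to 0.585 CPM in MI and 0.281 to 11.0 CPM in iCarP+/Light+ rats, where rat 1 alone held the upper value. Usp2, a deubiquitinase gene with E-box control, was at -3.33 (adjusted p = 4.37e-07), and Ppara, the nuclear receptor of fatty acid oxidation, at -3.29 (adjusted p = 7.63e-06). Cardiomyocyte markers fell by a median of 3.11 on the log2 scale in the same comparison, and their part in these differences was not tested.

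The genes most like Arntl and Dbp across the 12 rats were sought among 10722 protein-coding genes, by the root mean square difference of centred log2 CPM. Nearest to Arntl were Mnda (0.338), Lgmn (0.344), Zc3h12d (0.358), Fst (0.359) and Cd180 (0.370), none of them a clock gene. Among the other clock genes Clock was the nearest to Arntl, at rank 1946 and 1.05. Nearest to Dbp outside the 10 clock genes were Coq10a (0.392), Adamtsl4 (0.444), Pcp4l1 (0.444), Cidea (0.448) and Mycbpap (0.481), and of the clock genes Nr1d1 was at rank 5 (0.460), ahead of Mycbpap, Per3 at rank 21 and Nr1d2 at rank 92. The REV-ERB genes were closest to other clock genes. Nr1d2 was the gene nearest to Nr1d1 (0.249), with Per3 at rank 2 (0.281), and Tef was the nearest to Nr1d2 (0.239), with Nr1d1 at rank 2. The difference between Sham and infarcted tissue carries most of each of these patterns, so the distances are a description of 3 groups rather than of 12 independent points.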

How the data were processed

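RNA-seq of left ventricular tissue from 12 rats (4 Sham, 4 MI, 4 iCarP+/Light+) was used. The authors deposited raw read counts per gene, with identifiers, positions and lengths. The submitters' processing notes name HISAT2, featureCounts and the build rn6. Versions, strand setting and annotation release are not given in the sources used here. The library kit does not mark strand.

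The quasi-likelihood test of edgeR 4.0.16 (R 4.3.3) was run on the 12 rats together, with TMM scaling, group as the only term and the 15101 of 34599 genes that passed filterByExpr at a minimum count of 10. Adjusted p-values are Benjamini-Hochberg values over these genes, with a threshold of 0.05. The SE is the log2 fold change over the square root of F, and intervals are 95%. Since nothing beyond the sample names tells the rats apart, p-values measure the spread between these samples. The floor of 3 counts corresponds to 0.144 to 0.228 CPM and covers counting error only. Within groups, the chi-square per gene between libraries was 14.1 to 114, where counting noise gives 1. Same-numbered rats are different animals, and 0 of 9 same-numbered pairs had deviations correlated above 0.1 (-0.15 to 0.065), so no block was used.

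The clock genes and all lists were chosen with earlier results of these data known. Further genes were named by rule: up to 4 per list with the largest absolute change from Sham to MI among those called, all further clock genes called from MI to iCarP+/Light+, Cry2, and the 5 genes nearest to Arntl and to Dbp, the 10 clock genes left out (mean of at least 5 CPM, log2 CPM with prior count 2). Noct and an alpha globin gene were listed under more than 1 symbol and counted once. Itgam, Nr3c1 and Pecam1 were not analysed here, and some list members are counted but not reported here by name. Alternatives were DESeq2 size factors in edgeR, total counts alone, DESeq2 1.42.0, limma-voom (limma 3.58.1), 2 other filters, no mitochondrial genes, the compared groups alone, a replicate block and each rat left out. The method was also run on simulated counts in which far fewer genes differed than the 63.8% called here from Sham to MI. That run therefore does not cover data with so many differences. Promoter windows are RefSeq's, on GRCr8, and their coordinates differ from those on rn6 given for genes.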

Additional observations from a re-analysis of the deposited data

Results flagged for a closer look

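Per2 in MI rat 4 stood apart from the rest of its group. It was at 10.7 CPM, against 13.2 to 13.5 CPM in the other MI rats, and on the log2 CPM scale the gap to the nearest of them was 0.895 of the range of the group, above Dixon's 95% critical value for 4 samples. The same rat had the highest Arntl and the lowest Nr1d1, Nr1d2, Per1 and Per3 of the MI group. Among the 30 groups of values looked at, 10 genes in 3 groups, 1 was singled out this way, where chance gives 1.5. From MI to iCarP+/Light+, the call of Per2 held with any 1 rat omitted, this rat included.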

How the results depend on the processing

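Apart from Cry1, every call of a clock gene against Sham kept its direction and its side of the threshold under 9 alternative settings and with each rat left out, as did Per2 from MI to iCarP+/Light+. Cry1 from Sham to MI was called under 0 of 9 alternatives (adjusted p 0.058 to 0.790) and with 4 of 12 rats left out. The number of clock genes lower in MI than in Sham was 6 to 7 with 1 rat left out, and the number lower in iCarP+/Light+ than in MI was 0 to 1 with 1 rat left out and 1 with total counts alone, Arntl in both cases. Total counts alone moved the median of all genes to 0.52 (MI against Sham), -0.25 (iCarP+/Light+ against MI) and 0.33 (iCarP+/Light+ against Sham), so its values are to be read against these. It moved the higher share of all calls from 47.3 to 73.5%, from 85.2 to 30.7% and from 50.3 to 64.7%, and the calls from MI to iCarP+/Light+ from 2051 to 3926. DESeq2 and a filter of 10 counts in every sample gave higher shares of 70.8 and 72.4% in that comparison.

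The further clock genes called as higher from MI to iCarP+/Light+ numbered 3, in place of 5, with DESeq2 size factors, total counts alone, either other filter, no mitochondrial genes, the compared groups alone and the replicate block, and 3 to 6 with 1 rat left out. Those lower numbered 5 with total counts alone, 2 with DESeq2, 1 with the block and 0 to 1 with 1 rat left out. From Sham to MI, total counts alone gave 10 higher and 7 lower. With the same scaling, the signs turned for Cry1 (0.069), Bhlhe40 (0.15) and Ppp1cb (0.00087) from Sham to MI, for Nr1d1 (-0.17), Dbp (-0.052), Cry2 (-0.24), Csnk2a1 (-0.11), Prkaa2 (-0.064), Usp2 (-0.017), Klf15 (-0.086) and Klf9 (-0.13) from MI to iCarP+/Light+, and for Npas2 (0.20), Cry1 (0.18) and Ppp1cb (0.053) from Sham to iCarP+/Light+. Cry2 from MI to iCarP+/Light+ was also at -0.016 with DESeq2 size factors, -0.015 with DESeq2, -0.025 with 10 counts in every sample, -0.0066 without mitochondrial genes and -0.0057 in the compared groups alone. With 1 rat left out, signs turned within -0.13 to 0.066 for Clock, -0.35 to 0.10 for Per1, -0.075 to 0.32 for Nr1d1, -0.21 to 0.14 for Nr1d2, -0.039 to 0.076 for Cry2, -0.074 to 0.56 for Prkaa2, -0.14 to 0.077 for Tef, -0.21 to 0.44 for Klf15, -0.055 to 0.33 for Klf9 and -0.0051 to 0.42 for Usp2 from MI to iCarP+/Light+, -0.027 to 0.16 for Npas2 from Sham to MI, and -0.55 to 0.10 for Npas2 and -0.28 to 0.0091 for Cry1 from Sham to iCarP+/Light+. None of these was a call except Cry1 and Ppp1cb from Sham to MI. The replicate block, although the numbers pair no animals, gave 1298 calls from MI to iCarP+/Light+ and changed the sign of Nr1d2 there to 0.029, and Per2 remained called with it. Hlf, Kcnip2 and Mt1m had no value under some settings, because they failed the stricter filter or DESeq2 gave no adjusted p. The causes of these changes were not tested.

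All comparisons rest on 4 rats per group, a single day and no known hour of collection. Low genes such as Npas2, Hlf and Rora carry few reads, which widens their intervals.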

Other observations

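Glucocorticoids, which rise with stress and follow a daily rhythm, act on several clock genes, Per1 among them. Of 13 glucocorticoid-responsive genes tested, 7 were higher and 5 lower in MI than in Sham by edgeR, beside 30.2% and 33.6% of all genes, and 4 were higher and 0 lower in iCarP+/Light+ than in MI, beside 11.6% and 2.01%. The number higher in iCarP+/Light+ than in MI was 2 to 5 with 1 rat omitted, and 2 without iCarP+/Light+ rat 5. The metallothionein gene Mt2A had a log2 fold change of 5.28 (SE 0.30, adjusted p = 5.62e-08) and Angptl4, which encodes an inhibitor of lipoprotein lipase, of 5.00 (SE 0.48, adjusted p = 1.70e-06) from Sham to MI. Klf9, which encodes a transcription factor that also follows the clock, was at 93.7 to 120 CPM in Sham and 12.2 to 30.1 CPM in MI (-2.26, SE 0.25, adjusted p = 4.83e-06). Mt1m was at 0 to 0.0737 CPM in Sham, below the floor, and at 0.485 to 0.671 CPM in MI. With libraries scaled by total counts alone, 2 of the 13 were lower in MI than in Sham and 3 in iCarP+/Light+ than in Sham, in place of 5 each. These alternatives for the list, like those for the clock output genes, were added after the data had been seen.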
